A study of Mus musculus with 4 samples.

Results

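Transcripts of the type I interferon response were followed in T lineage cells that mouse progenitors formed in culture, and in the progenitors themselves. The set was a list of 40 genes, of which 38 had a probe set with a single gene symbol among the 19938 genes measured. Where a gene had several such probe sets (Irf1 here), the brightest on average over the 4 arrays stood for the gene. Isg15 and Ifi44 had none and are not analysed here. Tcf1 cells (2 arrays, labelled as biological replicates) came from C57BL/6 bone marrow progenitors given a retrovirus for the transcription factor Tcf1. They were grown on OP9, a mouse bone marrow stromal line without added Notch ligand, and sorted on day 10. Control cells (1 array) came from the same kind of progenitors given the empty vector and grown for the same 10 days on OP9 carrying the Notch ligand DL4. Both cultures were first sorted for the vector's reporter, then held IL7 and Flt3 ligand, and were gated as live, CD45.2+, Mac1- and Gr1- cells with Thy1 and CD25. LMPPs (lymphoid-primed multipotent progenitors, 1 array) were a pool, labelled wild-type, of lineage-negative cells with Sca1, Kit and much Flt3 on their surface. They were measured after 48 hours in the transduction medium, with no vector named for them. Vector and stroma differ together between Tcf1 and control cells. Vector, stroma, cytokines, days in culture and gate differ together from LMPPs, so the effects of these cannot be told apart.

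Type I interferons bind the receptor chains Ifnar1 and Ifnar2, whose kinases Jak1 and Tyk2 activate Stat2. With Irf9 it is part of a complex that binds the interferon-stimulated response element, a DNA motif near the start of many genes, antiviral ones among them. The products sense foreign nucleic acid, block viral entry, translation or replication, or feed back on the pathway, and a low basal level is kept in many cells without infection. In bone marrow, interferon is known to act on stem and progenitor cells as well as on mature blood cells.

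Values are log2 signal per probe set, so 1 unit is 2-fold, and levels are compared between arrays and never between genes. Array medians over all genes were 7.47 and 7.59 in Tcf1 cells, 7.49 in control cells and 7.49 in LMPPs. The test was limma's moderated test with Benjamini-Hochberg adjustment over all 19938 genes, passed at an adjusted p under 0.05. Its only residual degree of freedom (1) comes from the replicated group, and the unreplicated control and LMPP arrays are assumed to share that spread. The pooled SD of the Tcf1 pair was 0.16 over the members and 0.18 over all genes. In a sample of many cells, a lower signal from fewer cells of a type and from less RNA per cell cannot be told apart.

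Most of the interferon response genes were higher in Tcf1 cells than in LMPPs. Of 38 members, 24 rose, 0 fell and 14 did not pass, where 1.75% of all genes rose and 1.31% fell (349 and 261 genes, against 607 and 849 after median centring of the arrays). At an unadjusted p under 0.05, 35 members were higher and 0 lower in the same limma fit, against 1062 and 1838 of all 19938 genes. Both Tcf1 arrays lay above the LMPP array for 37 members, against 35.8% of all genes, and Irf1 was the exception. The median difference over the members was 1.27 on the log2 scale, against 0.00 over all genes. The members' median level was 9.42 and 9.50 on the Tcf1 arrays, 9.18 on the control array and 7.81 on the LMPP array. Among the 199 genes with the largest differences, which are the top 1% of all genes, 16 were members. Members were chosen with earlier results of these data known, so their counts beside all genes, here and below, are descriptive only. The smallest difference that passed was 0.99 (Oasl1), and the largest that did not was 0.85 (Mx1). With all 35399 probe sets in the fit, or with an unmoderated test, 0 members passed. In these fits 34 and 17 members were higher at an unadjusted p under 0.05. Such a p, in either direction, was found for 3317 of all 35399 probe sets and 1295 of all 19938 genes.

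**Figure D1:**
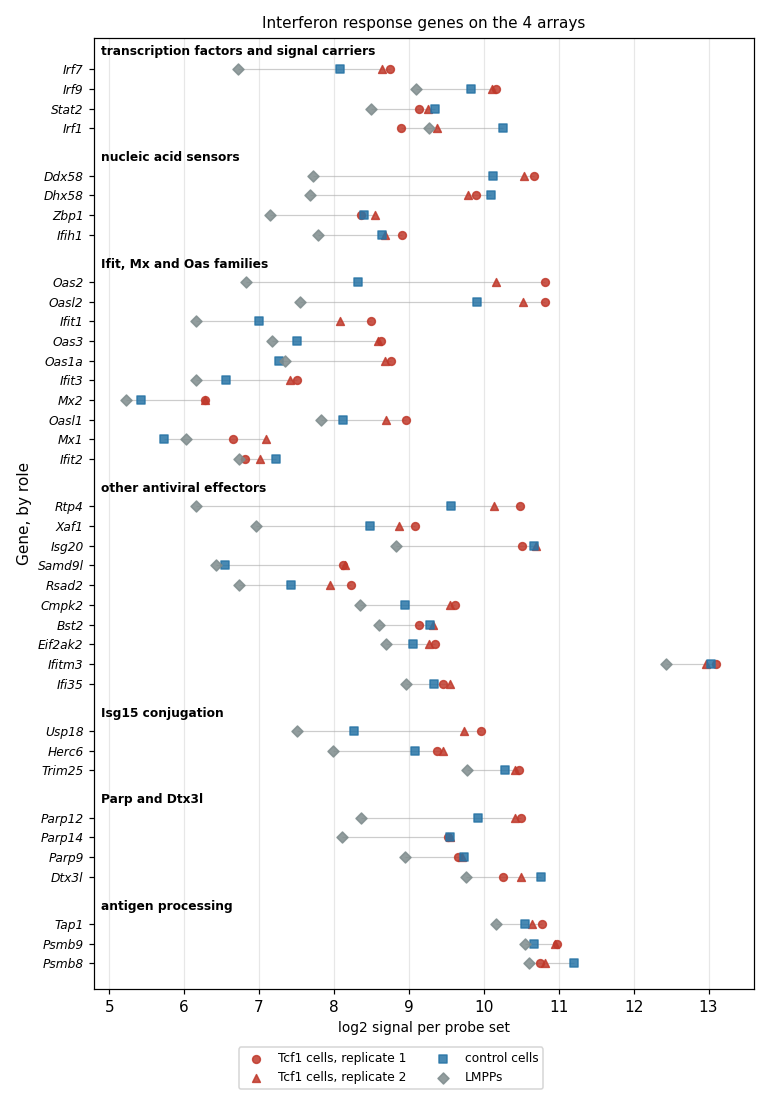
Log2 signal (horizontal axis) of the 38 measured members, 1 row per gene in groups by role, on the 2 Tcf1 arrays (red circles and triangles), the control array (blue squares) and the LMPP array (grey diamonds). The grey line joins the lowest and highest array. The LMPP array is the lowest for most genes, and the largest gap, that of Rtp4, lies between 10.48 in Tcf1 replicate 1 and 6.16 in LMPPs.

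The upstream windows of the members are shown because a response element near the start is a known feature of many genes of this response. Windows ran from 250 bases before a gene's start to 50 after it (RefSeq, GRCm38.p6) and were available for 29 of the 38 members, in 34 windows. The core of the interferon-stimulated response element, here GAAA, any 2 bases and GAAA again, was searched on both strands and was in the windows of 11 of the 29 members (37.9%), against 3.99% of all 27025 genes with a window. The motif TTCNNNGAA, which is its own reverse complement and is the form bound by Stat dimers, was in those of 9 members (31.0%), against 9.55% of all genes. Single matches of these motifs overlapped in Ifitm3 and in Bst2. The spacing variant GAAANGAAA was added after the windows had been read and was in those of 5 members (17.2%), against 3.70% of all genes. Of the 17 members with a window that rose against LMPPs, 7 held the core, and of the 12 that did not pass, 4 did. The windows printed are those of the 6 members with the largest differences between Tcf1 cells and LMPPs among those with a window, and of Irf1, which was added after its values were seen. Each runs 5′ to 3′ on the gene's strand, and capitals mark every match to any of the 3 motifs.
Oasl2, chr5:114896684-114896983, plus strand: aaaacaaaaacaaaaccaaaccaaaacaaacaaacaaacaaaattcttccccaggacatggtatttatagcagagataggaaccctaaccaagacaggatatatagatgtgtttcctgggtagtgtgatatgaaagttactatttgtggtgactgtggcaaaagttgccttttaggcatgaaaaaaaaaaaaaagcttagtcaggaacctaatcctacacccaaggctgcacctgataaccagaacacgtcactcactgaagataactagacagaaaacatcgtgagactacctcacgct
Ddx58, chr4:40239776-40240075, minus strand: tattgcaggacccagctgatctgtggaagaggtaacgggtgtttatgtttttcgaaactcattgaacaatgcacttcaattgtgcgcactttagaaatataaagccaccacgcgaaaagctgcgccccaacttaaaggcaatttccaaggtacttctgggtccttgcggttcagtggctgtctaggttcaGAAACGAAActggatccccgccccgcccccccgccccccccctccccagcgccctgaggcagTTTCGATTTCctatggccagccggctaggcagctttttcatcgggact
Ifit1, chr19:34640639-34640938, plus strand: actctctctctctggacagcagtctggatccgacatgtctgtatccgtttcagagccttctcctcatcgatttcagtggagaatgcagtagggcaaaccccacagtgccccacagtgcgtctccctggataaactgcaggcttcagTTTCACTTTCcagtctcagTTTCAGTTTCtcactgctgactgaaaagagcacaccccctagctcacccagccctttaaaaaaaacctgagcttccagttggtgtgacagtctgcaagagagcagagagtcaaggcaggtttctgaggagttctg
Parp12, chr6:39118300-39118599, minus strand: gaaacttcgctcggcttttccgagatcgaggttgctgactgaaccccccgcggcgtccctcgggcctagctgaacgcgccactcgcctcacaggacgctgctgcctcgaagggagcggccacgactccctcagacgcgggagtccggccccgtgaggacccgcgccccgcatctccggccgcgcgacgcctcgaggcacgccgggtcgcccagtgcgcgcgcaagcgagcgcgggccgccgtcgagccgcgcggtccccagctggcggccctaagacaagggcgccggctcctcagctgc
Xaf1, chr11:72301379-72301678, plus strand: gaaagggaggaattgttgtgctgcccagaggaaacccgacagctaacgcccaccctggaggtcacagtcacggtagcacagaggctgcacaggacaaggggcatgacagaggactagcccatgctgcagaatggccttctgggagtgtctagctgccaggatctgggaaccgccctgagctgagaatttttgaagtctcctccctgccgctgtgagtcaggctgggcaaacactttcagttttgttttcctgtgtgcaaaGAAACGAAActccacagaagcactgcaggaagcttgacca
Irf7, chr7:141266375-141266674, minus strand: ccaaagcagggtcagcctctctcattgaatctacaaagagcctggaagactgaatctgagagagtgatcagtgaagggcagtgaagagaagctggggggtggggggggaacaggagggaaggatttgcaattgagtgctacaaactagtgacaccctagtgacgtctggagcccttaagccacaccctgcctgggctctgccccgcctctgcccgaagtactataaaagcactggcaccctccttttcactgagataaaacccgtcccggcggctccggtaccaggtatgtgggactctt
Irf1, chr11:53769764-53770063, plus strand: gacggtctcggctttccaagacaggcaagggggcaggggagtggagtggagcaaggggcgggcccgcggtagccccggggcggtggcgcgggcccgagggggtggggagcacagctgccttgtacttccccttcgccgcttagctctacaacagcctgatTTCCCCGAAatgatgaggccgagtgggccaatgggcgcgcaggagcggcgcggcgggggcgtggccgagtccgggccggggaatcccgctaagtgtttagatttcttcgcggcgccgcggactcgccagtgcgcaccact
Ifit1 held 2 matches to the core on the reverse strand before its start. Ddx58 held 1 match to it and 1 to the spacing variant, and Xaf1 held 1 match to the variant. Irf1 held 1 match to the Stat motif. A second Irf1 window, chr11:53770223-53770522 on the plus strand, held no match to any of the 3 motifs and is not printed. No match was found in the windows of Oasl2, Parp12 and Irf7, which says only that these letters are not there. In another window pair, Psmb9 and Tap1 start head to head and share 275 of 300 bases.

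The transcription factors of the response moved unevenly. Irf7, which amplifies the interferon response, had 8.75 and 8.65 in Tcf1 cells, 8.08 in control cells and 6.71 in LMPPs. All 3 cultured samples were above the LMPPs, and the Tcf1 arrays were the highest. Irf7 was higher in Tcf1 cells than in LMPPs by 1.99 (SE 0.16, adjusted p = 0.00167, limma). Irf9, the DNA-binding subunit of the interferon-activated complex, read 10.16 and 10.11 on the Tcf1 arrays, against 9.83 on the control array and 9.10 on the LMPP array. Its difference from LMPPs was 1.04 (SE 0.16, adjusted p = 0.0204, limma). Stat2, its partner, read 9.14 and 9.25 on the Tcf1 arrays, against 9.34 on the control array and 8.50 on the LMPP array, so the cultured samples lay close together and above the LMPPs. The Stat2 difference of 0.70 did not pass (adjusted p = 0.088, limma). Irf1, which responds to interferon gamma as well as to type I interferon, had 8.90 and 9.37 in Tcf1 cells, 10.25 in control cells and 9.27 in LMPPs. Here the LMPP array lay between the Tcf1 replicates and the control array stood apart above all others.

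All 4 sensors of foreign nucleic acid rose against LMPPs. Ddx58, the RNA sensor RIG-I, read 10.67 and 10.53 on the Tcf1 arrays, against 10.13 on the control array and 7.72 on the LMPP array, so the 3 cultured samples lay well above the LMPPs. It rose by 2.88 (SE 0.17, adjusted p = 0.000581, limma), or 7.38-fold. Dhx58 encodes LGP2, a relative of RIG-I that tunes RNA sensing. Its signal was 9.89 and 9.79 in Tcf1 cells, 10.09 in control cells and 7.69 in LMPPs, with the control array slightly above both Tcf1 arrays. Dhx58 rose by 2.15 (SE 0.16). Zbp1, a sensor of nucleic acid in the Z form that can trigger cell death, read 8.36 and 8.55 on the Tcf1 arrays, against 8.40 on the control array and 7.15 on the LMPP array and rose by 1.31. Ifih1, the RNA sensor MDA5, had 8.91 and 8.68 in Tcf1 cells, 8.64 in control cells and 7.78 in LMPPs and rose by 1.01 (adjusted p = 0.0326, limma), but did not pass after renewed quantile normalization. For these sensors control cells and Tcf1 cells were close, and none passed between them (1 higher and 0 lower at an unadjusted p under 0.05 in limma).

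The Oas enzymes make oligoadenylates that switch on the ribonuclease RNase L. Oas2 had the second largest difference of the list, with 10.82 and 10.16 in Tcf1 cells, 8.31 in control cells and 6.82 in LMPPs. Its replicates were also the most unequal of all members, 0.66 apart, yet both stood far above the other 2 arrays. Oas2 rose by 3.67 (SE 0.27, adjusted p = 0.00129, limma), or 12.7-fold. Oas1a, an active synthetase, read 8.76 and 8.69 on the Tcf1 arrays, against 7.27 on the control array and 7.35 on the LMPP array, and Oas3, the largest of the family, had 8.63 and 8.58 in Tcf1 cells, 7.50 in control cells and 7.17 in LMPPs. For both, Tcf1 cells stood apart, while control cells and LMPPs differed by -0.08 (Oas1a) and 0.33 (Oas3). Oas1a rose by 1.37 and Oas3 by 1.43. Oasl2, an Oas-like protein, had 10.82 and 10.52 in Tcf1 cells, 9.91 in control cells and 7.54 in LMPPs and rose by 3.12 (SE 0.19, adjusted p = 0.000648, limma). Oasl1, which in mice restrains translation of Irf7, read 8.96 and 8.69 on the Tcf1 arrays, against 8.12 on the control array and 7.83 on the LMPP array and rose by 0.99 (adjusted p = 0.04, limma), but not after renewed quantile normalization. The Oas genes lie together on chromosome 5 and have near relatives, as do the Ifit genes on chromosome 19, so part of a signal could come from a relative.

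Ifit proteins bind viral RNA or translation factors. Ifit1 had 8.50 and 8.08 in Tcf1 cells, 7.001 in control cells and 6.16 in LMPPs, so that the order of the groups was the same as for Oas2. It rose by 2.12 (SE 0.21, adjusted p = 0.0036, limma). Ifit3 read 7.51 and 7.42 on the Tcf1 arrays, against 6.55 on the control array and 6.15 on the LMPP array and rose by 1.31. Ifit2, a neighbour of both, was unlike them, with 6.81 and 7.02 in Tcf1 cells, 7.22 in control cells and 6.73 in LMPPs. Its difference from LMPPs was 0.18 and did not pass (adjusted p = 0.793, limma). The Mx genes encode dynamin-like GTPases that block viruses, and C57BL/6 is among the strains known to carry a defective Mx1 allele. Mx2 had 6.28 and 6.28 in Tcf1 cells, 5.43 in control cells and 5.23 in LMPPs and rose by 1.05 (adjusted p = 0.0191, limma). Mx2 was below the 25th percentile of expression and so was not tested under the filter on dim genes. Mx1 read 6.65 and 7.09 on the Tcf1 arrays, against 5.73 on the control array and 6.02 on the LMPP array, and its difference from LMPPs of 0.85 did not pass (adjusted p = 0.11, limma).

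Among the other antiviral effectors, Rtp4, an interferon-induced protein of the receptor transporter family, had the largest difference of the list. Its signal was 10.48 and 10.14 in Tcf1 cells, 9.56 in control cells and 6.16 in LMPPs. Rtp4 rose by 4.15 (SE 0.20, adjusted p = 0.00028, limma), or 17.8-fold, the 8th largest increase among all genes. Xaf1, a partner of the apoptosis inhibitor XIAP, had 9.09 and 8.86 in Tcf1 cells, 8.48 in control cells and 6.95 in LMPPs and rose by 2.02. Isg20, an exonuclease, read 10.51 and 10.70 on the Tcf1 arrays, against 10.67 on the control array and 8.83 on the LMPP array, with the control array between the 2 Tcf1 arrays, and rose by 1.77. Samd9l, a restriction factor that also limits growth of blood progenitors, had 8.12 and 8.15 in Tcf1 cells, 6.55 in control cells and 6.42 in LMPPs. For Samd9l the Tcf1 arrays stood alone, and control cells lay within 0.13 of LMPPs. It rose by 1.71 (SE 0.16, adjusted p = 0.00273, limma).

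Rsad2 (viperin), which makes a chain-terminating nucleotide, and Cmpk2, a mitochondrial nucleotide kinase, lie next to each other on chromosome 12. Rsad2 had 8.23 and 7.95 in Tcf1 cells, 7.43 in control cells and 6.74 in LMPPs. Cmpk2 had 9.61 and 9.55 in Tcf1 cells, 8.94 in control cells and 8.34 in LMPPs. The neighbours shared the order of the groups, with differences from LMPPs of 1.36 (Rsad2, lost after renewed quantile normalization) and 1.24 (Cmpk2). The other 4 effectors were above the LMPPs on both Tcf1 arrays without passing. These were Bst2 (tetherin, which holds virus at the cell surface) at 0.63, Eif2ak2 (the kinase PKR, which stops translation) at 0.62, Ifitm3 (a block to virus entry) at 0.60 and Ifi35 at 0.54.

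Usp18 removes Isg15, a ubiquitin-like protein, from its targets and also dampens signalling at the interferon receptor. It read 9.96 and 9.73 on the Tcf1 arrays, against 8.26 on the control array and 7.50 on the LMPP array, and rose by 2.34 (SE 0.18, adjusted p = 0.00136, limma), or 5.06-fold. Herc6, the main Isg15 ligase in mice, had 9.38 and 9.45 in Tcf1 cells, 9.08 in control cells and 7.99 in LMPPs and rose by 1.42. Trim25, a ubiquitin ligase that acts on RIG-I, differed by 0.66 without passing (adjusted p = 0.0956, limma). Parp12 and Parp14, which attach ADP-ribose to proteins, rose by 2.10 and 1.44. Parp12 had 10.49 and 10.41 in Tcf1 cells, 9.93 in control cells and 8.35 in LMPPs. Parp14 had 9.53 and 9.55 in Tcf1 cells, 9.55 in control cells and 8.10 in LMPPs, so its 3 cultured samples lay close together. Parp9 (0.73) and its binding partner Dtx3l (0.61), which neighbour Parp14 on chromosome 16, did not pass. The antigen processing genes had the smallest median difference of any role, 0.41. Tap1, a subunit of the peptide transporter, differed by 0.55, and the immunoproteasome subunits Psmb9 and Psmb8 by 0.41 and 0.18, none past the test (2 higher and 0 lower at an unadjusted p under 0.05 in limma).

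**Figure D2:**
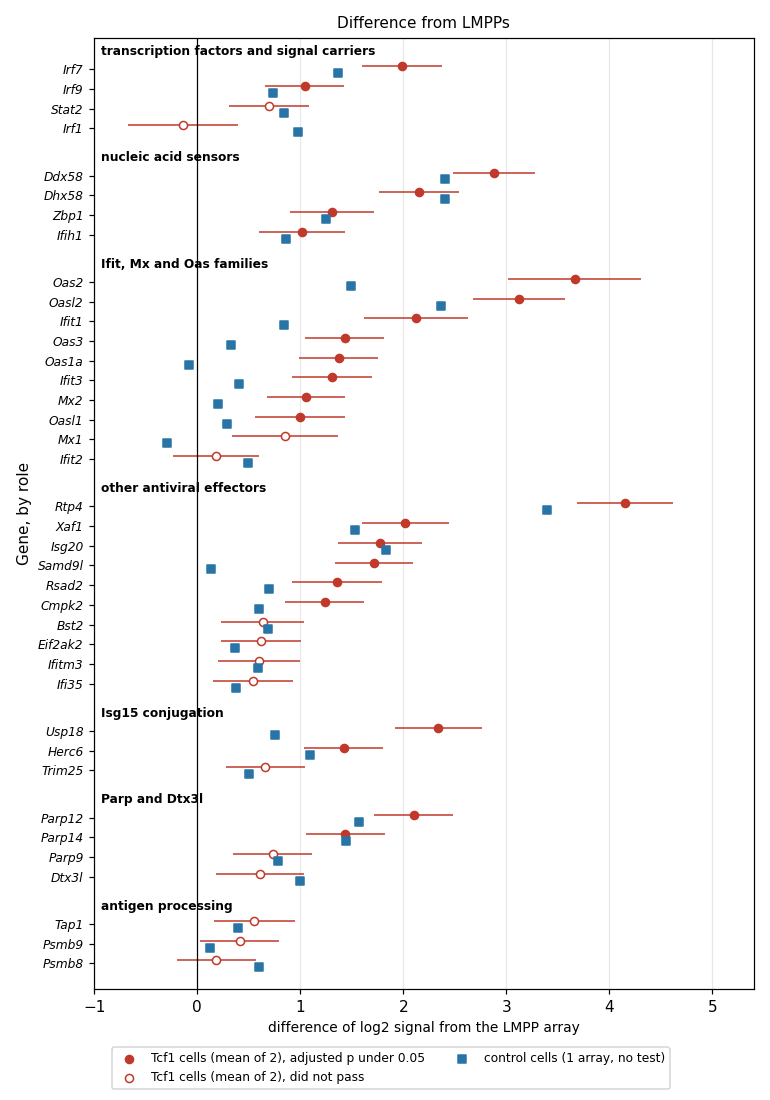
Difference of log2 signal from the LMPP array (horizontal axis) for each measured member, by role, for the mean of the 2 Tcf1 arrays (red circles with 95% intervals, filled where the adjusted p is under 0.05) and for the control array (blue squares, with no test). Both sets of points share the LMPP array. Tcf1 cells reach 4.15 for Rtp4. For Oas1a and Samd9l the control square lies near 0, and for Mx1 it lies below 0, at -0.29.

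Control cells, 1 array against the 1 LMPP array, had no replicate check and no test. Of 38 members, 13 were at least 2-fold higher and 0 at least 2-fold lower than in LMPPs, where 3.17% of all genes were higher and 2.36% lower by that much. At a 1.5-fold minimum 25 members were higher, where 6.54% of all genes were. The control array lay above the LMPP array for 36 members, against 47.2% of all genes, with a median difference of 0.74 over the members and -0.01 over all genes. Rtp4 had the largest difference, 3.40 (10.5-fold), followed by Ddx58 at 2.41, Dhx58 at 2.40 and Oasl2 at 2.37. Mx1 (-0.29) and Oas1a (-0.08) were the 2 members below the LMPP array. Of the 24 members that rose in Tcf1 cells against the same LMPP array, 12 were at least 2-fold higher in control cells and 12 were not. The comparisons of both cultures with LMPPs share that array and are not independent.

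Tcf1 cells were set directly against control cells, which had also been transduced and sorted by the same gate. Members of the Ifit, Mx and Oas families were higher in Tcf1 cells, and most others did not pass. Of 38 members, 9 were higher, 1 lower and 28 did not pass, where 1.90% of all genes were higher and 2.49% lower. At an unadjusted p under 0.05, 18 were higher and 2 lower in the same limma fit, against 1141 and 1668 of all 19938 genes. The median difference over the members was 0.32, against 0.02 over all genes. Both Tcf1 arrays lay above the control array for 26 members (38.6% of all genes) and below it for 7 (34.2% of all genes). By role, 7 of the 10 Ifit, Mx and Oas members were higher, and 2 of the 28 others, Samd9l and Usp18. With all 35399 probe sets in the fit, or with an unmoderated test, 0 members passed against control cells. In these fits 17 and 4 were higher and 1 and 0 lower at an unadjusted p under 0.05. Such a p, in either direction, was found for 3702 of all 35399 probe sets and 1161 of all 19938 genes.

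Oas2 had the largest difference, with a mean of 10.49 ± 0.47 (SD, n = 2) in Tcf1 cells and 8.31 on the control array. Its difference was 2.18 (SE 0.27, adjusted p = 0.00699, limma), or 4.52-fold. Samd9l was higher by 1.59 (SE 0.16, adjusted p = 0.00317, limma) and Usp18 by 1.58 (SE 0.18, adjusted p = 0.00461, limma). Oas1a was higher by 1.46, Ifit1 by 1.28, Mx1 by 1.14, Oas3 by 1.10, Ifit3 by 0.91 and Mx2 by 0.85, with adjusted p from 0.0046 (Oas1a) to 0.0347 (Mx1, limma). After renewed quantile normalization Ifit1 (1.29) and Mx1 (1.05) no longer passed. The Ifit2 difference had the opposite sign to its neighbours, at -0.31, without passing (adjusted p = 0.563, limma). Oasl1 (0.71) and Oasl2 (0.76) read higher on both Tcf1 arrays without passing. With genes above the 25th percentile of expression only, both passed, and so did Rtp4 (0.76), Rsad2 (0.66) and Cmpk2 (0.63) of the other roles.

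Irf1 was the member lower in Tcf1 cells, by -1.12 (SE 0.22, adjusted p = 0.0425, limma). Its replicates, 8.90 and 9.37, both lay below the 10.25 of the control array. This rested on the brighter of 2 Irf1 probe sets. The dimmer one read 7.49 and 7.38 in Tcf1 cells, 7.84 in control cells and 7.46 in LMPPs, a difference of -0.40 from control cells. The mean of both probe sets differed by -0.76 and did not pass (adjusted p = 0.0537, limma).

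A group of 16 members rose against LMPPs and did not pass against control cells. For 10 of them the 95% interval of the difference between Tcf1 and control cells lay within 2-fold in either direction. Parp14 differed by -0.01, with an interval from -0.39 to 0.37. Isg20 differed by -0.06 (-0.47 to 0.35), and Zbp1 by 0.06 (-0.35 to 0.46). The sign for Isg20 and Parp14 turned to 0.06 and 0.10 after renewed quantile normalization. For 9 of the 16, the unadjusted interval lay clear of 0. Rtp4 was an example, at 0.76 (0.29 to 1.22), as was Irf7 at 0.62 (0.23 to 1.01), with adjusted p of 0.102 and 0.106 in limma.

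**Figure D3:**
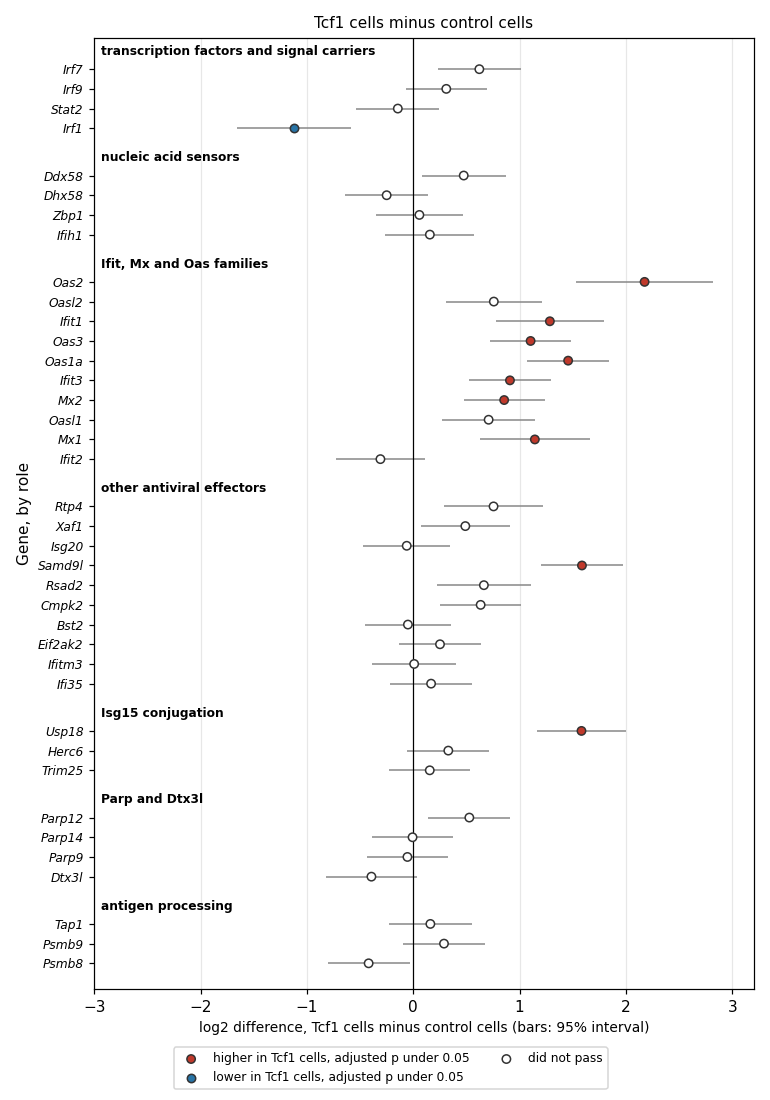
Difference of log2 signal, Tcf1 cells minus control cells (horizontal axis), for each measured member by role, with 95% intervals from limma. Filled red points passed as higher in Tcf1 cells, the filled blue point as lower, and open points did not pass. Of the 9 red points, 7 are Ifit, Mx and Oas genes, led by Oas2 at 2.18, and the blue point is Irf1 at -1.12.

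The rest of the pathway was read from 5 further lists. Of all genes, 1.75% rose and 1.31% fell against LMPPs, and 1.90% were higher and 2.49% lower against control cells. No gene for an interferon passed in limma. Of 15 measured, 0 rose and 0 fell against LMPPs or against control cells, and 0 had an unadjusted p under 0.05 in limma in either. Ifnz (0.37), Ifna12 (0.31), Ifna14 (0.22) and Ifna5 (0.20) had the largest differences from LMPPs, and the Ifnz replicates, 9.14 and 7.74, lay on either side of the LMPP value of 8.07. Of 8 receptor chains, kinases and inhibitors, 2 rose against LMPPs and none passed against control cells (0 higher and 1 lower at an unadjusted p under 0.05 in limma). The risers were Socs3 (1.45) and Socs1 (1.15), inhibitors of cytokine receptor kinases. Socs3 read 9.15 and 9.46 on the Tcf1 arrays, against 9.54 on the control array and 7.85 on the LMPP array. Socs1 read 9.74 and 10.01 on the Tcf1 arrays, against 10.24 on the control array and 8.72 on the LMPP array, so that both inhibitors were highest on the control array. Ifnar2, a chain of the interferon receptor, differed by -0.34 and the phosphatase gene Ptpn6 by -0.28 without passing.

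Of 22 genes for the induction of interferon, 0 passed against LMPPs (3 higher and 1 lower at an unadjusted p under 0.05 in limma). The largest differences were those of Tlr7 (-0.77), Ikbke (0.76), Tlr9 (0.47) and Irf5 (-0.44). Against control cells 3 were higher in Tcf1 cells. These were Tlr9 (1.55) and Tlr7 (1.39), endosomal receptors for nucleic acid, and Samhd1 (1.42), an enzyme that degrades nucleotides, which was named after its value was seen. Tlr7 read 7.63 and 7.89 on the Tcf1 arrays, against 6.37 on the control array and 8.53 on the LMPP array, so it was lowest in control cells.

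A list of 52 other measured interferon-stimulated genes was read in the same way. Of these, 16 rose and 1, the peptidase gene Lap3 (-0.88), fell, and the median was 0.50. Ms4a4c, a membrane protein of blood cells, had the largest difference, with 10.07 and 10.19 in Tcf1 cells, 6.30 in control cells and 6.73 in LMPPs. It rose by 3.40 (SE 0.16, adjusted p = 0.000296, limma) and was higher than in control cells by 3.83. Slfn5 of the Schlafen family rose by 2.88, the Oas relative Oas1b by 2.22 and Ifi27 by 2.06. Against control cells 6 of the 52 were higher and 0 lower (17 higher and 6 lower at an unadjusted p under 0.05 in limma), with a median of 0.11. Of 15 genes best known for the response to interferon gamma, 3 rose and 1 fell against LMPPs. The GTPases Irgm1 (1.11) and Gbp8 (1.10) and the receptor chain Ifngr1 (0.88) rose, and Irf8, a transcription factor of myeloid cells, fell by 2.16. Against control cells 1 was higher and 2 lower. Gbp9 (-1.58) and Gbp8 (-1.01) were lower and the receptor chain Ifngr2 (0.99) was higher, with Gbp9 and Ifngr2 named after their values were seen. The median of the 15 against control cells was 0.14. Both Tcf1 arrays lay above the control array for 8 of them (38.6% of all genes) and below it for 4 (34.2% of all genes).

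**Figure D4:**
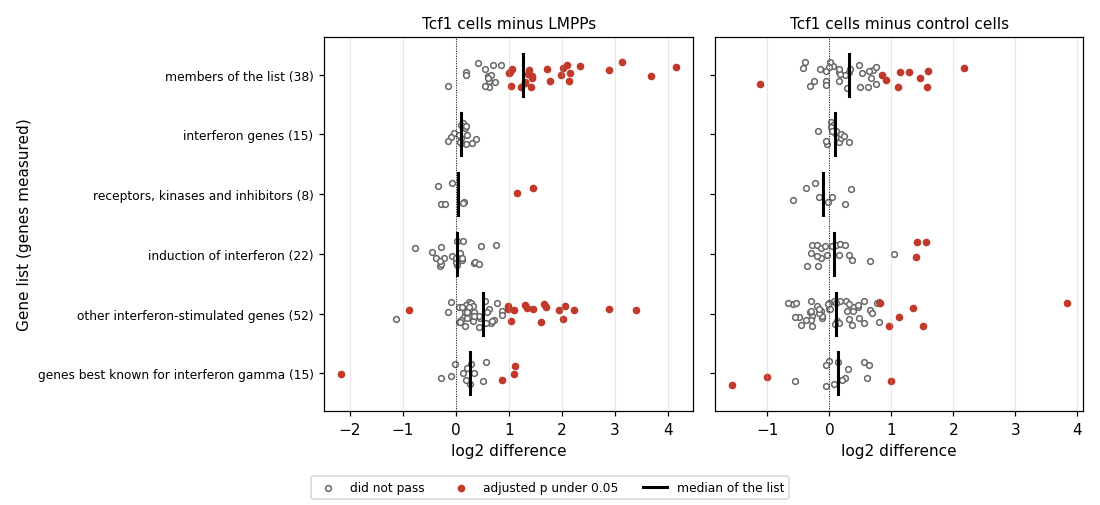
Log2 difference of each measured gene of the members' list and of 5 further lists of the pathway (rows), for Tcf1 cells minus LMPPs (left) and Tcf1 cells minus control cells (right). Red points had an adjusted p under 0.05, open points did not pass, and black bars are list medians. Against LMPPs the medians are 1.27 for the members, 0.50 for other interferon-stimulated genes and 0.10 for the interferon genes.

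Markers of cell types were read beside these results, with the same shares of all genes as background. Of 8 T lineage markers, 6 were higher in Tcf1 cells than in LMPPs. They were Thy1 (4.33) and Il2ra (6.07), the sort markers, Gata3 (2.54), Bcl11b (2.08) and, of the chains of the T cell receptor complex, Cd247 (1.66) and Cd3g (0.94), whereas Cd3e (0.11) and Cd3d (0.16) did not pass. Against control cells 0 of the 8 were higher and 5 lower, with Cd3g at -6.44 and a list median of -1.40. Progenitor markers differed the other way from control cells. Of 6 measured, 3 were higher in Tcf1 cells than in control cells and 0 lower, namely Flt3 (4.24), Cd34 (3.90) and Meis1 (3.29), with a list median of 1.77. Against LMPPs 1 of the 6 rose, Kit (1.54), and 2 fell, Hlf (-1.58) and Flt3 (-0.91).

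Macrophage markers also moved with the difference from control cells. Of 11, 7 were higher in Tcf1 cells than in control cells and 4 higher than in LMPPs, with 0 lower in either. Their mean log2 signal was 8.59 and 8.88 on the Tcf1 arrays, 6.88 on the control array and 7.59 on the LMPP array. Their summed linear signal was 8569 and 10886 in Tcf1 cells, 1553 in control cells and 3590 in LMPPs. By both measures control cells were below LMPPs for these markers. Tcf1 replicate 2 was above replicate 1 for the macrophage mean, as it was for the median of all genes (7.59 against 7.47). The median of replicate 1 minus replicate 2 was 0.06 over the members and -0.08 over all genes. Among them Adgre1 read 11.10 and 11.43 on the Tcf1 arrays, against 6.51 on the control array and 6.89 on the LMPP array. Lyz2 (4.09), Mrc1 (2.27), C1qb (2.24), Csf1r (1.82), Cd68 (1.60) and Cd14 (0.85) were also higher than in control cells. Differences from control cells did not pass for C1qc (1.06), Mertk (0.94), Fcgr1 (0.59) and C1qa (0.16). Of 10 stromal markers, 3 rose against LMPPs, Timp3 (3.75), Bgn (2.25) and Fn1 (1.90), and 0 fell. Against control cells 2 were higher, Fn1 (1.80) and Bgn (1.52), and 1 was lower, Pdgfrb (-1.63). The stromal mean log2 signal was 8.03 and 8.35 on the Tcf1 arrays, 7.88 on the control array and 7.31 on the LMPP array, and the collagen gene Col1a1 differed from LMPPs by 0.21 and from control cells by 0.17, neither past the test. Of 7 plasmacytoid dendritic cell markers, 0 rose and 3 fell against LMPPs, and 1 was higher and 1 lower against control cells, with Siglech at -0.53 from LMPPs and 0.74 from control cells, past neither test. Of 7 natural killer cell markers, 1 rose (Gzmb, 2.18) and 1 fell (Eomes, -1.58) against LMPPs. Against control cells 0 of the 7 were higher and 1 was lower (Gzma, -3.91). Of 4 B lineage markers, 0 were higher and 1, Cd79b, was lower against LMPPs (-2.39) and against control cells (-1.53). These array values have no true 0, and the part of other cell types in the interferon results was not tested.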

How the data were processed

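Per the labels' protocols, 250 ng of RNA per sample went through the WT Expression kit of Ambion and the WT Terminal Labeling kit of Affymetrix. The authors deposited log2 signal per probe set. RMA and Partek 6.5 are named per the submitters' processing notes, with no parameters, and the log base was taken from RMA and the range of 3.44 to 14.45. The build of the genome was not given in the sources used here, and neither scanner files nor detection calls were analysed. The number of arrays limits the precision.

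Of 35399 probe sets, 21789 had a single gene symbol, 1621 several and 11989 none, which left 19938 genes (999 with several probe sets, the highest mean used). Symbols were checked through Entrez numbers in a RefSeq gene table (21698 matched, 0 renamed). The linear model of limma 3.58.1 (R 4.3.3) had a mean per group (prior of 5.78 degrees of freedom, 6.78 in all, prior SD 0.141). The fit was also run on data simulated with the same spread on every array. Such data cannot check whether the single arrays vary as the Tcf1 pair does. The labels do not say that the Tcf1 replicates came from separate animals, so p-values measure the spread between these samples.

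All measured members were named, with every array's value for those past either test and for the transcription factors, and the 4 largest differences from LMPPs of each further list. Members and lists were chosen with earlier results of these data known. Alternatives were another normalization, a filter on dim genes, the mean of probe sets, all probe sets, an intensity trend, an unmoderated test and leaving out each Tcf1 replicate. Promoter windows are RefSeq's, on GRCm38.p6.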

Additional observations from a re-analysis of the deposited data

How the results depend on the processing

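The members' count against LMPPs ran from 23 to 27 higher and 0 lower under both other normalizations, the filter on dim genes, the mean of probe sets and the intensity trend (24 as reported; the filter removed Mx2 and left 37 members), and against control cells from 7 to 13 higher (9 as reported). Under the mean of probe sets, 0 members were lower than in control cells (1 as reported, Irf1). With all 35399 probe sets in the fit and with the unmoderated test, 0 members were higher than in LMPPs and 0 higher or lower than in control cells, and the cause was not tested. Those fits called 0 and 12 genes against LMPPs and 0 and 12 against control cells. Over all genes the count against LMPPs was 610 as reported, 1456 after median centring, 1196 above the 25th percentile of expression and 936 with an intensity trend. The count against control cells was 874 as reported, 1646 after median centring and 1437 above the 25th percentile. The median difference from LMPPs was 1.21 and 1.24 without Tcf1 replicates 1 and 2 in turn, and that from control cells 0.33 and 0.32, values with no test since no residual degree of freedom was left. At a 1.5-fold minimum, 25 members were higher in control cells than in LMPPs, where 6.54% of all genes were, against 13 at 2-fold. Differences from control cells near 0 changed sign after renewed quantile normalization for Isg20 (0.06), Bst2 (0.06), Parp9 (0.05) and Parp14 (0.10), and after median centring for Ifitm3 (-0.03). No paired analysis was possible because only the Tcf1 group has more than 1 replicate number, and control cells and LMPPs had 1 array each.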
